A study of Mus musculus with 8 samples.

Results

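The genes described here were 61 genes of the Wnt pathway, chosen by symbol from the 51822 symbols in the expression tables. They were 19 Wnt ligands, 10 Frizzled receptors, the co-receptors Lrp4, Lrp5 and Lrp6, 11 secreted antagonists of the Sfrp and Dkk families with Wif1 and Notum, 4 R-spondins, the 3 LGR receptors of the R-spondins, the receptor ubiquitin ligases Znrf3 and Rnf43, the intracellular regulators Axin1, Axin2, Nkd1 and Nkd2, and β-catenin (Ctnnb1) with 4 TCF/LEF transcription factors. Frzb, which is also called Sfrp3, was not taken because its symbol lies outside these names. RNA was measured by Ion Proton sequencing in osteoblast progenitors kept in osteogenic medium, which was α-MEM with serum, ascorbic acid, dexamethasone and β-glycerophosphate. DMSO as vehicle (control) or LAMZ (locamidazole, an aminoindazole derivative) at 1 µM was added, and cells were collected at day 7 or day 14, which gave 4 groups of 2 libraries. The sample labels give the cells as MC3T3-E1, a clonal osteoblastic line from mouse calvaria, whereas the methods of the study describe the sequenced RNA as that of cultured calvarial cells, which were prepared from neonatal mice. No source used here says whether the 2 libraries of a group came from separate cultures, so the p-values measure the spread between libraries, which may be technical.

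Wnt proteins are secreted lipid-modified ligands that bind Frizzled receptors together with the co-receptors Lrp5 and Lrp6. Binding stops the Axin complex from marking β-catenin for destruction, and β-catenin then enters the nucleus and works with TCF/LEF factors on target genes. Sfrp proteins and Wif1 bind Wnt ligands outside the cell, Dkk1 blocks Lrp5 and Lrp6, and R-spondins with LGR receptors remove the ubiquitin ligases Znrf3 and Rnf43, which otherwise clear Frizzled receptors from the surface. In bone the pathway is known to favour osteoblast formation, and mutations of LRP5 alter bone mass.

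Levels are RPKM, reads scaled by the length of the gene and by the mapped reads of the library, so that genes can be compared per length. The libraries held about 3463503 to 5832092 mapped reads, as recovered from the steps in the RPKM values, and the 2 libraries of a group had a Pearson r of 0.961 to 0.98 across genes. One transcript of the signal recognition particle, Rn7s1, took 18.1% to 33.7% of the summed RPKM of a library. All 18 genes of an osteoblast marker list were tested, and of these 11 rose with LAMZ at day 7, while 9 rose and 2 (Msx2 and Omd) fell at day 14. That is 61.1% up at day 7, where 4.35% of all tested genes rose. At day 14 it is 50.0% up and 11.1% down, against 6.96% and 16.0% of all tested genes. Macrophage markers, which an osteoblastic line should lack, were present in the control libraries, where the 21 genes of a macrophage and osteoclast list summed to 595 to 720.3 RPKM at day 7 and 1306 to 1332 at day 14. With LAMZ the sums were 98.7 to 103 and 113 to 130.3, and 8 of the 21 genes (C1qa, C1qb, C1qc, Fcgr1, Tyrobp, Laptm5, Ctss and Dcstamp) were at 0 in all 4 LAMZ libraries. The osteoclast genes Ctsk and Acp5 of the list did not follow: mean RPKM of Ctsk, the largest part of the LAMZ sums, was 95.5 in control and 87.9 with LAMZ at day 7 and 99.7 and 110.1 at day 14, and that of Acp5 was 4.57, 4.06, 3.58 and 3.87. The same libraries differed in an adipocyte and a chondrocyte list. The adipocyte sums were 38.9 to 49.2 in the day 7 control libraries and 9.59 to 10 with LAMZ, and 72.8 to 124 and 12.9 to 15.3 at day 14. In the day 7 control libraries Lpl, Cebpa and Cd36 made most of the sum, with means of 17.3, 12.05 and 6.46. Adipoq, Plin1, Cidec and Retn had means of 0.768, 0.2, 0 and 0 there. The 2 day 14 control libraries stood apart in Fabp4, at 6.44 and 41.2, and in Adipoq, at 2.43 and 11.7. The chondrocyte sums were 241 to 306 in the day 7 control libraries and 576 to 585 with LAMZ, and 229 to 231 and 563 to 661 at day 14.

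Of the 61 genes, 40 reached 1 RPKM in 2 or more of the 8 libraries and were tested. The other 21 did not pass, and Wnt1 was at 0 in every library. Just inside this limit, by their second-highest RPKM, were Dkk2 at 1.36, Axin2 at 1.4 and Wnt4 at 1.59, and just outside were Rnf43 at 0.995, Fzd3 at 0.941 and Wnt11 at 0.907. Differences are given as log2 fold changes on the log2(RPKM + 1) scale with their standard error, from a limma fit over all 4 groups with p-values adjusted over 12514 genes. This scale understates the change of genes near or under 1 RPKM, so the fold between group means of RPKM is given beside it where useful.

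Among the clearest changes with LAMZ were a loss of the antagonist Sfrp1, of the R-spondins Rspo2 and Rspo3 with the receptor Lgr5, and of the receptor Fzd4. The ligand Wnt10b, the transcription factor Tcf7 and the antagonist Dkk1 were gained. Dkk1 passed at day 7, with its day 14 change just short of the threshold. Sfrp2 and Fzd2 fell and Sfrp4 and Lgr6 rose at day 14, without passing at day 7. These day 14 calls held in all 20 alternative settings, which are named in the closing section. At day 7, LAMZ changed 14 of the 40 tested genes, 9 up and 5 down, where 12.8% of all tested genes passed, 4.35% up and 8.49% down. At day 14 it changed 21, 8 up and 13 down, against 23.0% of all genes, 6.96% up and 16.0% down. A group of 8 passed on both days and moved the same way on both. Fzd4, Lgr5, Rspo2, Rspo3 and Sfrp1 fell, and Lrp4, Tcf7 and Wnt10b rose. The day 7 calls of Lgr5, Lrp4 and Rspo2 were lost in 14, 12 and 11 of the 20 alternative settings. Those of Wnt10b at day 7 and of Lrp4 and Tcf7 at day 14 were lost in 6 each. The share of all tested genes that passed on both days was not counted. Averaged over both days 25 passed, 13 up and 12 down, against 29.5% of all genes, 9.12% up and 20.3% down.

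The median log2 fold change of the 40 genes was 0.08 at day 7 and -0.25 at day 14, where that of all tested genes was -0.08 and -0.15. The 2 days share no library. Across the 40 genes the changes at the 2 days had a Pearson r of 0.83, and 30 genes had the same sign on both days, which is 75% against 68% of all genes, for which r was 0.657. Genes are not independent replicates, so no p is given. The split into higher and lower depended on how libraries were scaled. Rescaling to the same sum rests in part on Rn7s1, which took 18.1% to 33.7% of the sums and was itself higher with LAMZ. It had 84130 and 102600 RPKM in the day 7 control libraries and 144100 and 130500 with LAMZ. At day 14 it had 60040 and 51880 in control and 89990 and 100300 with LAMZ. With every library rescaled to the same summed RPKM, which shifts the median of all genes by -0.23 at day 7 and -0.28 at day 14, 13 genes passed at day 7 (2 up, 11 down) and 24 at day 14 (3 up, 21 down). That is 32.5% and 60.0% of the 40, where this scaling called 28.7% and 46.3% of all genes, so the day 7 share was near that of all genes. With every library centred on its median the counts were 12 at day 7 (9 up, 3 down) and 23 at day 14 (13 up, 10 down), where 12.8% and 22.8% of all genes passed. No change that was called at day 7 or at day 14 turned its sign on that day in any of the settings tried.

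The counts fell when any library of their own day was left out, which leaves 1 library in its group. The number of all tested genes that passed fell then too. A library outside a comparison does not enter its log2 fold change, so leaving it out changes only the estimate of the spread. Without day 7 control library 1 or 2 the day 7 count was 7 or 8, and without day 7 LAMZ library 1 or 2 it was 4 or 6. The day 14 count was 13 without day 14 LAMZ library 1 and 12 without any other of the 4 day 14 libraries. Fzd4, Dkk1, Sfrp1 and Tcf7 passed at day 7, and Wnt10b, Fzd2, Fzd4, Sfrp1, Sfrp2, Sfrp4, Rspo2, Rspo3, Lgr5 and Lgr6 at day 14, in each of the 20 alternative settings, which are named in the closing section. As bulk RNA was measured, fewer cells of a type and less RNA per cell cannot be told apart. The macrophage, adipocyte and chondrocyte lists moved between the same groups of libraries: of the macrophage and osteoclast list, 13 of 18 tested genes fell at day 7 and 15 at day 14, of the adipocyte list 3 and 5 of 7 fell, and of the chondrocyte list 7 and 9 of 10 rose, while Sox9 fell at day 14. Of all tested genes 8.49% fell and 4.35% rose at day 7, and 16.0% fell and 6.96% rose at day 14. Their part in the Wnt pathway results was not tested.

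**Figure D1:**
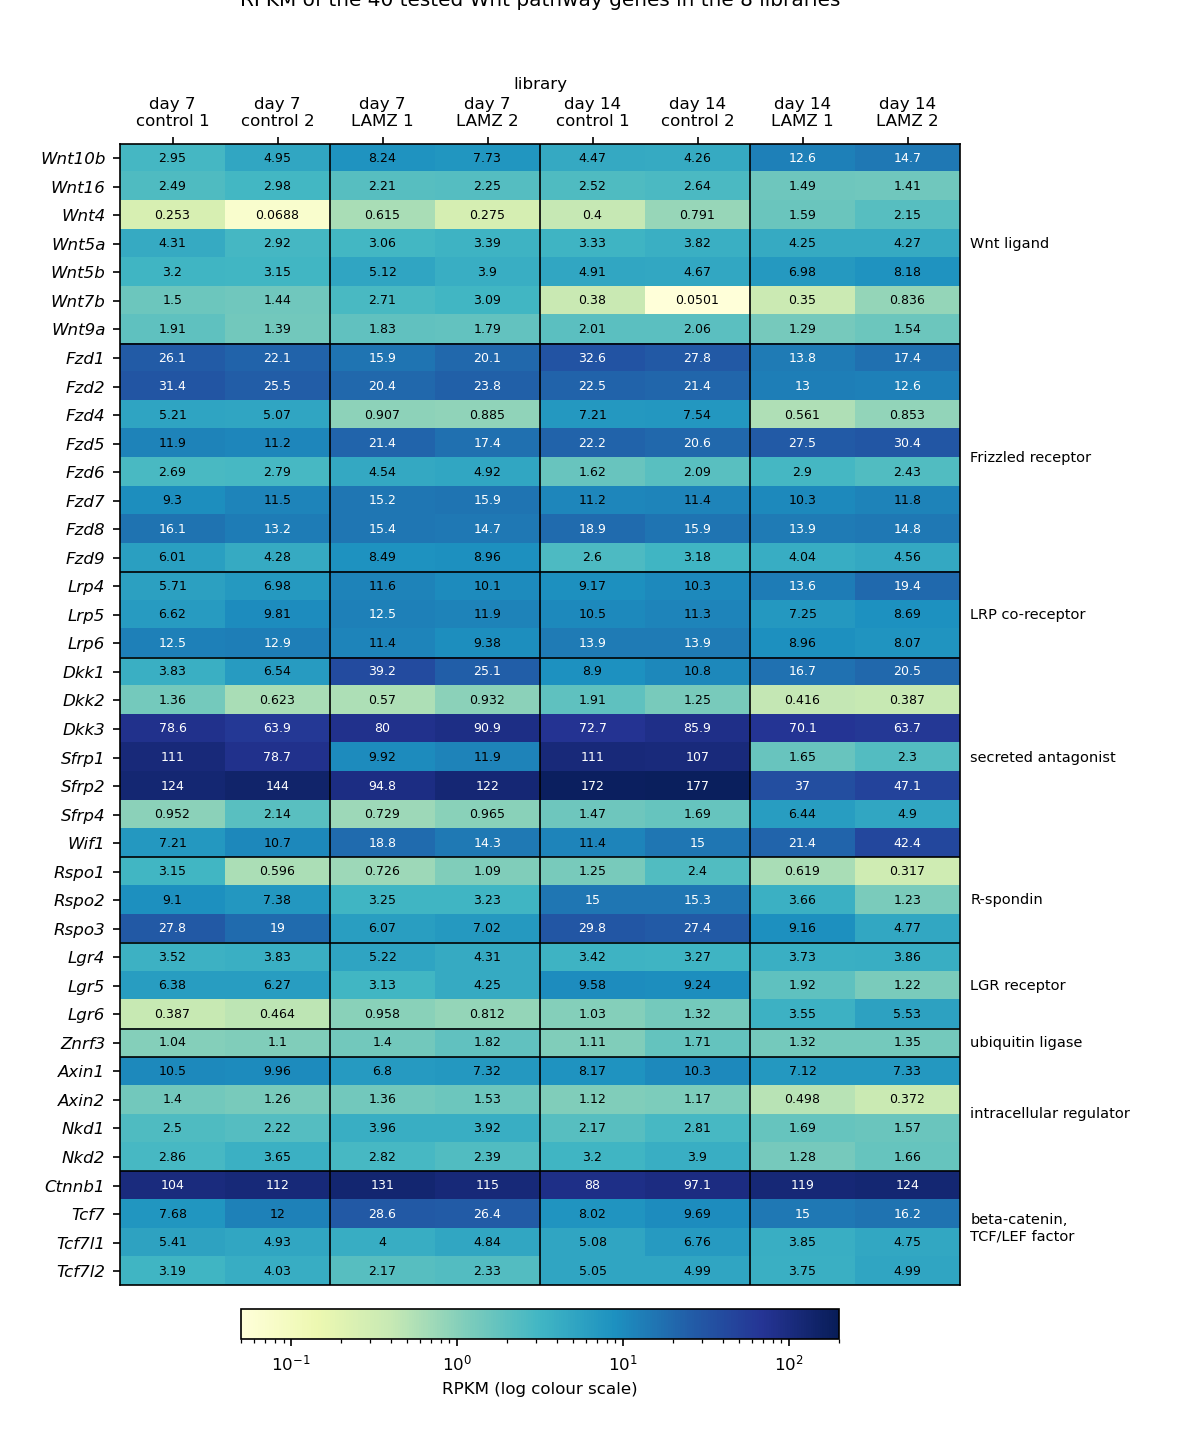
RPKM of the 40 tested Wnt pathway genes, in rows grouped by role, in each of the 8 libraries, in columns; the number in each cell is the RPKM and the colour follows a log scale. Sfrp1 goes from 111 and 107 in the day 14 control libraries to 1.65 and 2.3 with LAMZ, while Ctnnb1 stays between 88 and 131 in all 8.

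**Figure D2:**
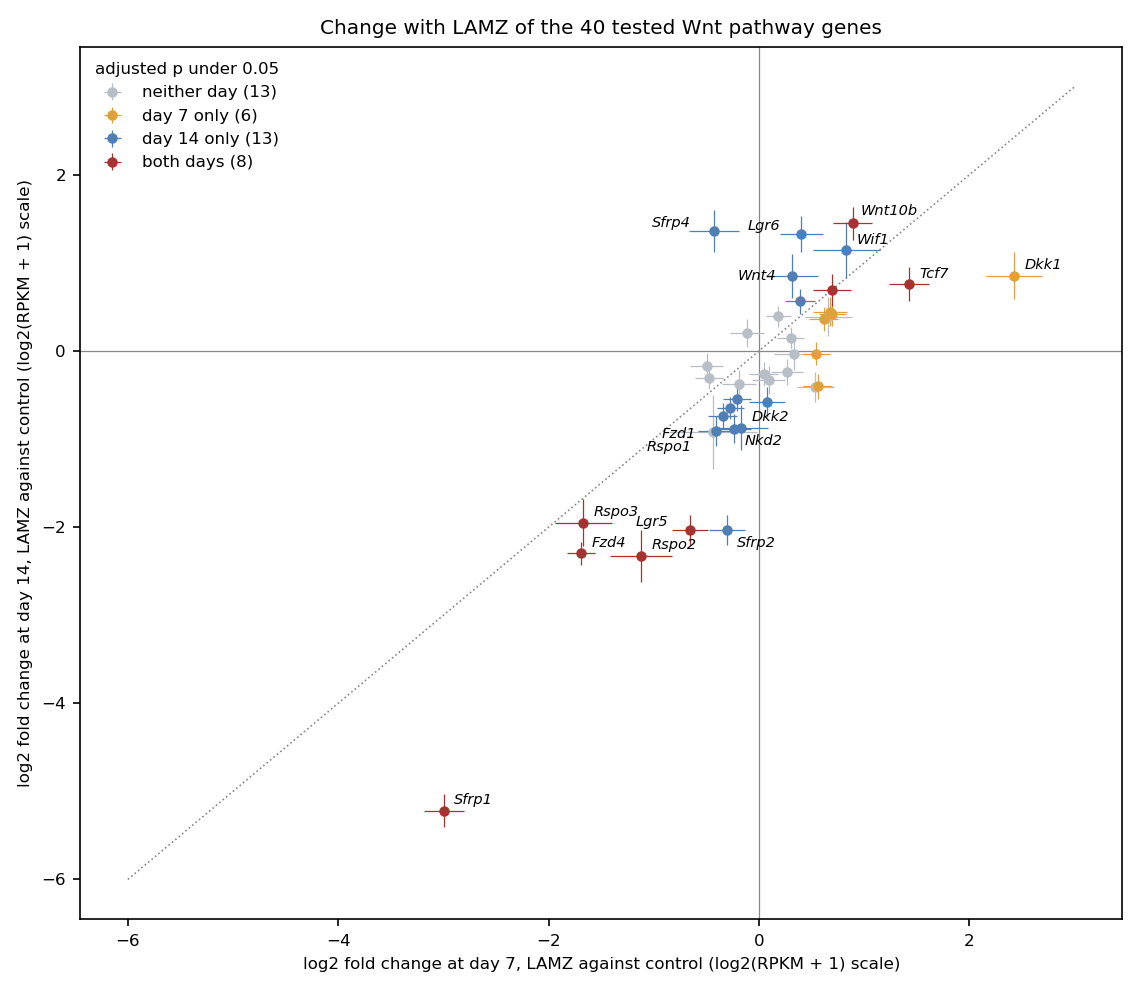
Change with LAMZ at day 7 (x axis) against day 14 (y axis) for the 40 tested genes, as log2 fold change on the log2(RPKM + 1) scale; bars are standard errors, colour gives the day at which the adjusted p was under 0.05, and the dotted line marks equal change. The 8 genes that passed on both days lie in the lower left and upper right corners, with Sfrp1 lowest at -3.0 and -5.22.

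TCF/LEF factors bind a short motif, and the promoters of the 61 genes were searched for it. The letters searched were CTTTGAT and CTTTGAA on both strands, which differ in their last letter so that 1 place holds 1 of them at most, in windows of 300 bases around the RefSeq start site (250 before and 50 after, GRCm38.p6). Of the 61 genes 40 had an entry, with 50 windows, and 3 windows (6.0%) held a match, those of Dkk1, Wnt5b and Wnt11, where 2842 of all 32851 windows (8.65%) did. The 27 bases around each match are shown 5′ to 3′ along the gene, with the match in capitals, since Dkk1 and Wnt5b rose with LAMZ and Wnt11 was not tested:
Dkk1: cctcccaaagCTTTGAAatcccatccc
Wnt5b: gtaagtctctCTTTGATctgctccctg
Wnt11: acgtgggcggATCAAAGcgacggtccg
The Dkk1 stretch is chr19:30549597-30549623 on the minus strand, begins its match 117 bases before the RefSeq start and lies inside an exon of GENCODE M21. The Wnt5b stretch is chr6:119449441-119449467 on the minus strand and its match begins 71 bases before 1 of the start sites of the gene. The Wnt11 stretch is chr7:98835051-98835077 on the plus strand, with the match on the other strand, 51 bases before the start. These matches are a description of letters and not of binding.

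Among the secreted antagonists, 1 of 7 tested genes rose (Dkk1) and 1 fell (Sfrp1) at day 7. That is 14.3% each way, where 4.35% of all tested genes rose and 8.49% fell. At day 14 Sfrp4 and Wif1 rose while Sfrp1, Sfrp2 and Dkk2 fell. That is 28.6% up and 42.9% down, against 6.96% and 16.0% of all tested genes. Sfrp1 (ENSMUSG00000031548, chr8:23411502-23449632, plus strand), a secreted protein that holds Wnt ligands away from their receptors, had RPKM of 111 and 78.7 in the day 7 control libraries and 9.92 and 11.9 with LAMZ. Sfrp1 at day 14 was at 111 and 107 in control and 1.65 and 2.3 with LAMZ. All LAMZ libraries lay far below all control libraries, and the lowest control library was several times the highest LAMZ library. The mean RPKM was 8.71-fold lower with LAMZ at day 7 and 55.4-fold lower at day 14, with log2 fold changes of -3.0 ± 0.19 (adjusted p = 1.21e-04) and -5.22 ± 0.19 (adjusted p = 4.56e-06). The day 14 change minus the day 7 change was -2.23 ± 0.27 (adjusted p = 0.0268).

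Sfrp2 (ENSMUSG00000027996, chr3:83766321-83774316, plus strand), a close relative of Sfrp1 that was the highest of the 61 genes in control libraries, had RPKM of 124 and 144 in the day 7 control libraries and 94.8 and 122 with LAMZ. Sfrp2 at day 14 was at 172 and 177 in control and 37 and 47.1 with LAMZ. At day 14 the LAMZ libraries were far below the controls, whereas at day 7 the groups nearly met. The log2 fold change was -0.31 ± 0.17 (adjusted p = 0.287) at day 7 and -2.04 ± 0.17 (adjusted p = 1.76e-04) at day 14, where the mean RPKM was 4.15-fold lower. The difference between the days was -1.73 ± 0.24 (adjusted p = 0.0369), and with Sfrp1 it made the 2 genes of the 40 whose change differed between days, against 0.623% of all genes, 0.312% in this direction. Sfrp4, an antagonist linked to cortical bone thickness, had RPKM of 0.952 and 2.14 in the day 7 control libraries and 0.729 and 0.965 with LAMZ. Sfrp4 at day 14 was at 1.47 and 1.69 in control and 6.44 and 4.9 with LAMZ. It was 3.58-fold higher with LAMZ at day 14 (1.36 ± 0.24, adjusted p = 0.00553), while at day 7 the libraries overlapped (-0.43 ± 0.24, adjusted p = 0.291), and its difference between days was 1.79 ± 0.34 (adjusted p = 0.0666). Sfrp5 was not tested, with at most 0.451 RPKM. Summed over the 4 Sfrp genes, the RPKM was 225 to 236 in the day 7 control libraries, 106 to 135 with LAMZ at day 7, 284 to 286 in the day 14 control libraries and 45.5 to 54.4 with LAMZ at day 14. Both calls of a difference between days were lost in most fits that left out 1 library. Sfrp1 for the difference between days did not pass without any of the 4 day 14 libraries, either day 7 LAMZ library or day 7 control library 2 (adjusted p = 0.0522 to 0.127). Sfrp2 for the difference between days did not pass without any of the 8 libraries (adjusted p = 0.0522 to 0.151).

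Dkk1 (ENSMUSG00000024868, chr19:30545863-30549665, minus strand), an inhibitor that binds Lrp5 and Lrp6 and restrains bone formation, had RPKM of 3.83 and 6.54 in the day 7 control libraries and 39.2 and 25.1 with LAMZ. Dkk1 at day 14 was at 8.9 and 10.8 in control and 16.7 and 20.5 with LAMZ. The LAMZ libraries were above the controls on both days with no overlap. The mean RPKM was 6.2-fold higher at day 7 (2.42 ± 0.26, adjusted p = 0.00125) and 1.89-fold higher at day 14, which did not pass (0.85 ± 0.26, adjusted p = 0.0522) but was called in 10 of the 20 alternatives, 4 of them with 1 library left out. The difference between days was -1.57 ± 0.37 (adjusted p = 0.109). Wif1, which binds Wnt ligands directly, had RPKM of 7.21 and 10.7 in the day 7 control libraries and 18.8 and 14.3 with LAMZ. Wif1 at day 14 was at 11.4 and 15 in control and 21.4 and 42.4 with LAMZ. Its LAMZ libraries were higher on both days, with a wide gap between the 2 LAMZ libraries at day 14. The change was 0.83 ± 0.32 (adjusted p = 0.136) at day 7 and 1.15 ± 0.32 (adjusted p = 0.0357) at day 14, and without day 14 LAMZ library 2 the day 14 value was 0.67. Dkk2, a second Lrp5/6-binding Dkk, had RPKM of 1.36 and 0.623 in the day 7 control libraries and 0.57 and 0.932 with LAMZ. Dkk2 at day 14 was at 1.91 and 1.25 in control and 0.416 and 0.387 with LAMZ. These are 7 to 38 reads a library. It fell at day 14 (-0.87 ± 0.25, adjusted p = 0.0413), and its day 7 libraries overlapped (-0.17 ± 0.25, adjusted p = 0.713). Dkk3, the Dkk family member that does not act on Lrp5 or Lrp6 in the usual way, had RPKM of 78.6 and 63.9 in the day 7 control libraries and 80 and 90.9 with LAMZ. Dkk3 at day 14 was at 72.7 and 85.9 in control and 70.1 and 63.7 with LAMZ. It was the highest Dkk gene in every library and did not pass on either day (0.26 ± 0.15, adjusted p = 0.301, and -0.24 ± 0.15, adjusted p = 0.291). Dkk4, Dkkl1 and Notum reached at most 0.14 to 0.779 RPKM and were not tested. The RPKM summed over the Dkk family was 71 to 83.8 in the day 7 control libraries, 117 to 119.8 with LAMZ at day 7, 83.6 to 98.1 in the day 14 control libraries and 84.7 to 87.4 with LAMZ at day 14, of which Dkk3 made the larger part.

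Some of these antagonist calls were lost when 1 library was left out. Wif1 at day 14 did not pass without either day 7 LAMZ library, either day 14 control library or day 14 LAMZ library 2 (adjusted p = 0.0547 to 0.175). Dkk2 at day 14 did not pass without any of the 4 day 14 libraries or either day 7 LAMZ library (adjusted p = 0.0564 to 0.183). Among the settings that kept every library, calls were lost for Wif1 at day 14 in 3 of 12 (adjusted p up to 0.107) and Dkk2 at day 14 in 5 of 11 (adjusted p up to 0.112).

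**Figure D3:**
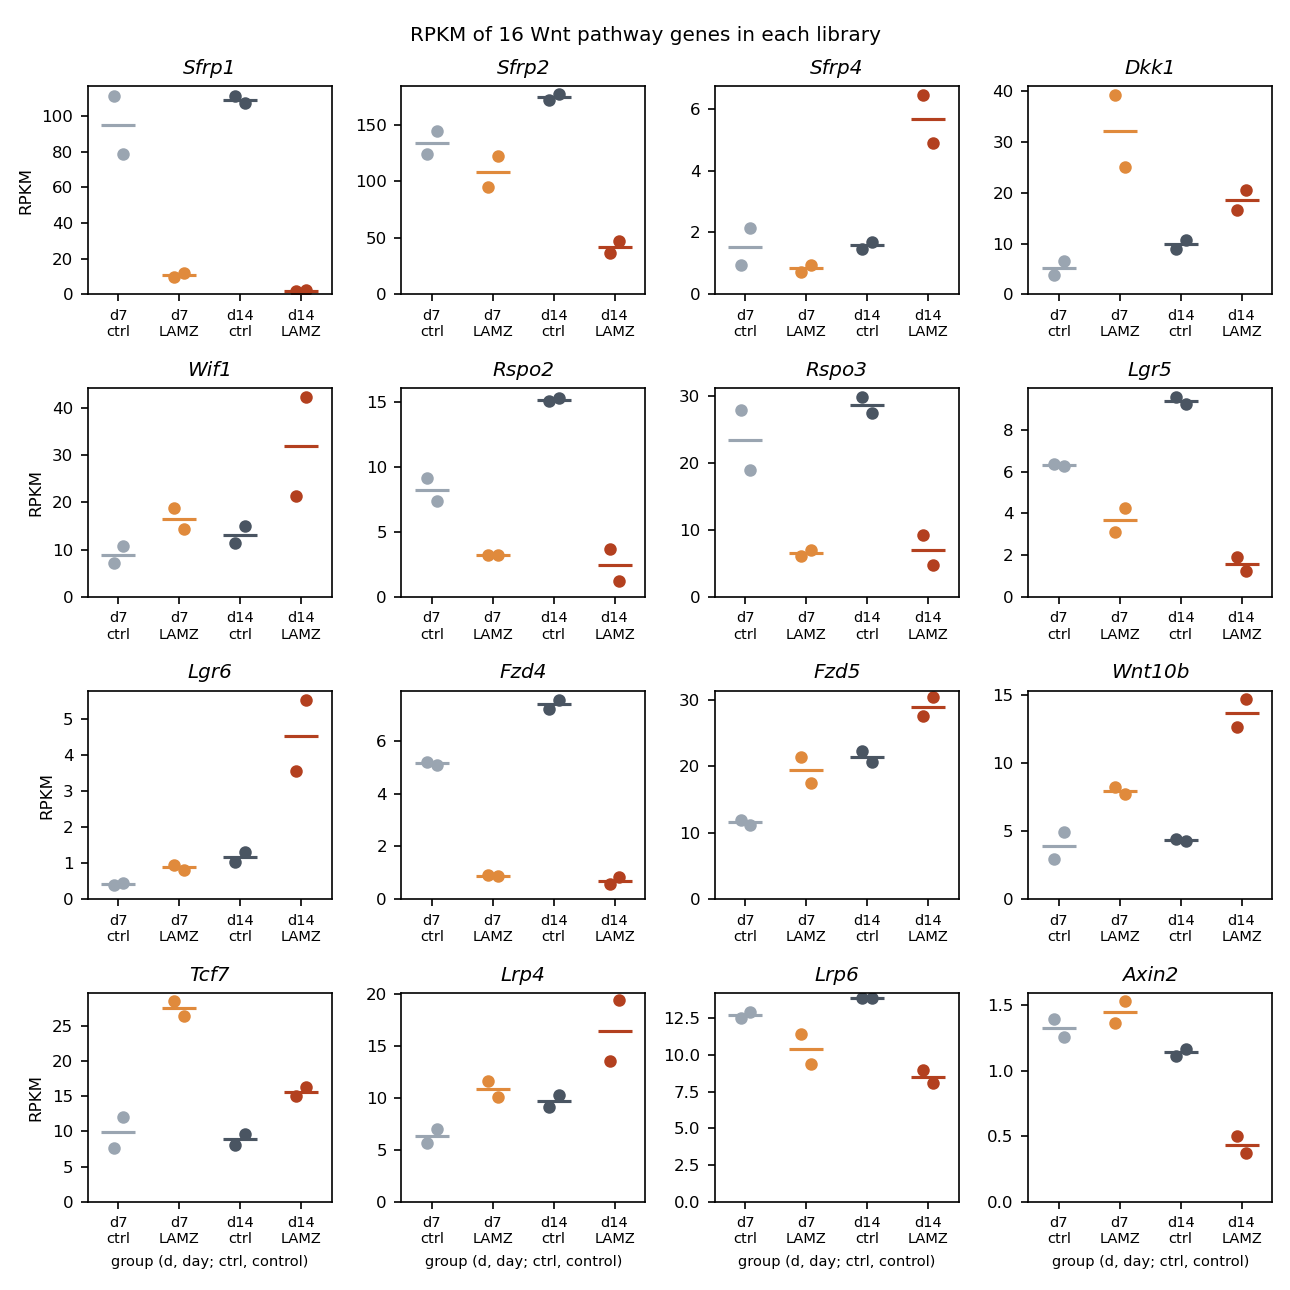
RPKM of 16 Wnt pathway genes in each library by group, with d7 and d14 for day 7 and day 14, ctrl for control; each point is 1 library and each line the mean of 2. The y axes start at 0 and differ between panels, and Sfrp1, Rspo2, Rspo3, Lgr5 and Fzd4 lie lower with LAMZ on both days, while Wnt10b, Tcf7, Dkk1 and Lrp4 lie higher.

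**Figure D4:**
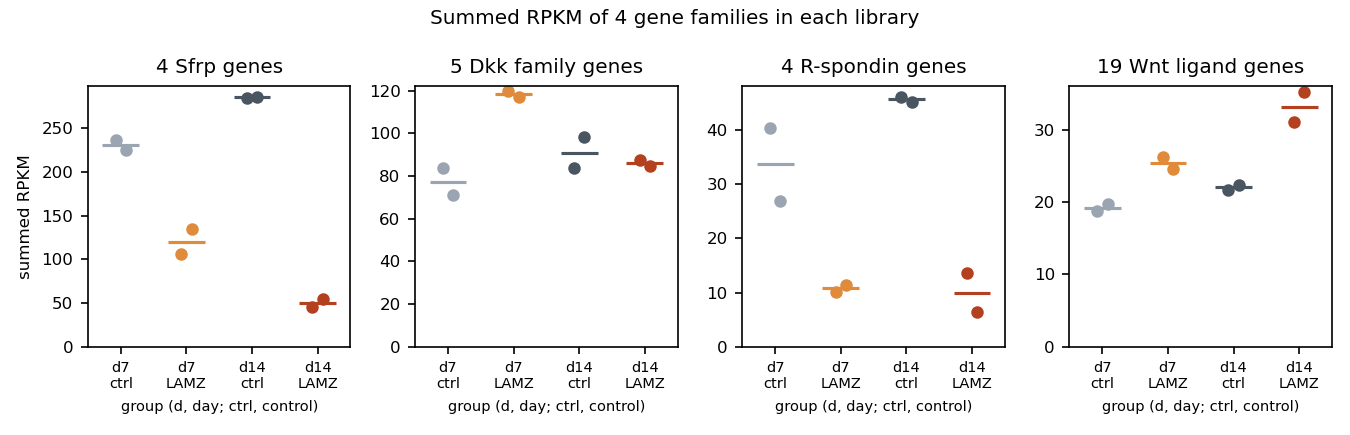
Summed RPKM of the 4 Sfrp genes, the 5 Dkk family genes, the 4 R-spondin genes and the 19 Wnt ligand genes in each library; points are libraries and lines are means of 2. The Sfrp sums are 284 to 286 in the day 14 control and 45.5 to 54.4 in the day 14 LAMZ libraries, and the Wnt ligand sums 21.7 to 22.3 and 31 to 35.2.

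Of the 3 tested R-spondins, Rspo2 and Rspo3 fell on both days, with the same sign under each scaling, and Rspo1 passed on neither. That is 66.7% down, where 8.49% of all tested genes fell at day 7 and 16.0% at day 14. Rspo4 was not tested, at a highest RPKM of 0.336. Rspo3 (ENSMUSG00000019880, chr10:29452416-29535867, minus strand), a secreted protein that raises the Wnt response through LGR receptors, had RPKM of 27.8 and 19 in the day 7 control libraries and 6.07 and 7.02 with LAMZ. Rspo3 at day 14 was at 29.8 and 27.4 in control and 9.16 and 4.77 with LAMZ. Every LAMZ library was below every control library. The mean was 3.57-fold lower at day 7 (-1.67 ± 0.27, adjusted p = 0.00699) and 4.11-fold lower at day 14 (-1.95 ± 0.27, adjusted p = 0.0020). Rspo2 (ENSMUSG00000051920, chr15:43020794-43170826, minus strand), known for its role in limb and skeletal growth, had RPKM of 9.1 and 7.38 in the day 7 control libraries and 3.25 and 3.23 with LAMZ. Rspo2 at day 14 was at 15 and 15.3 in control and 3.66 and 1.23 with LAMZ. The control libraries of day 14 were the highest and the LAMZ libraries of both days the lowest, with changes of -1.12 ± 0.29 (adjusted p = 0.0451) and -2.32 ± 0.29 (adjusted p = 0.00133). Rspo1 had RPKM of 3.15 and 0.596 in the day 7 control libraries and 0.726 and 1.09 with LAMZ. Rspo1 at day 14 was at 1.25 and 2.4 in control and 0.619 and 0.317 with LAMZ. These are 3 to 23 reads a library. The 2 day 7 control libraries of Rspo1 stood far apart, and neither day passed (-0.44 ± 0.42, adjusted p = 0.549, and -0.92 ± 0.42, adjusted p = 0.156). Summed over the 4 genes, R-spondin RPKM was 26.9 to 40.4 in the day 7 control libraries, 10.1 to 11.4 with LAMZ at day 7, 45.2 to 46.2 in the day 14 control libraries and 6.41 to 13.6 with LAMZ at day 14.

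The LGR receptors went apart from each other. Lgr5 (ENSMUSG00000020140, chr10:115450311-115587780, minus strand), an R-spondin receptor best known as a stem cell marker, had RPKM of 6.38 and 6.27 in the day 7 control libraries and 3.13 and 4.25 with LAMZ. Lgr5 at day 14 was at 9.58 and 9.24 in control and 1.92 and 1.22 with LAMZ. It was 1.72-fold lower in mean RPKM with LAMZ at day 7 (-0.65 ± 0.17, adjusted p = 0.0432) and 6.0-fold lower at day 14 (-2.03 ± 0.17, adjusted p = 1.77e-04), with no overlap on either day. The larger fall at day 14 missed the threshold as a difference between days (-1.38 ± 0.24, adjusted p = 0.0579). Lgr6 (ENSMUSG00000042793, chr1:134983301-135105276, minus strand), a second R-spondin receptor, had RPKM of 0.387 and 0.464 in the day 7 control libraries and 0.958 and 0.812 with LAMZ. Lgr6 at day 14 was at 1.03 and 1.32 in control and 3.55 and 5.53 with LAMZ. All LAMZ libraries were above the controls of their day, and the gain passed at day 14, where the mean was 3.85-fold higher (1.33 ± 0.21, adjusted p = 0.00319), but not at day 7 (0.40 ± 0.21, adjusted p = 0.248). Lgr4 had RPKM of 3.52 and 3.83 in the day 7 control libraries and 5.22 and 4.31 with LAMZ. Lgr4 at day 14 was at 3.42 and 3.27 in control and 3.73 and 3.86 with LAMZ. It passed on neither day (0.30 ± 0.13, adjusted p = 0.168, and 0.14 ± 0.13, adjusted p = 0.453). Per length, Lgr5 was the higher of the pair in control libraries and Lgr6 the higher in both day 14 LAMZ libraries, a ratio chosen after its values were seen. The ratio of Lgr6 to Lgr5 within a library was 0.0607 and 0.0739 in the day 7 control libraries, 0.306 and 0.191 with LAMZ at day 7, 0.108 and 0.143 in the day 14 control libraries and 1.85 and 4.54 with LAMZ at day 14.

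Znrf3, a membrane ubiquitin ligase that removes Frizzled receptors and that R-spondins inhibit, had RPKM of 1.04 and 1.1 in the day 7 control libraries and 1.4 and 1.82 with LAMZ. Znrf3 at day 14 was at 1.11 and 1.71 in control and 1.32 and 1.35 with LAMZ. Its libraries were higher with LAMZ at day 7 and overlapped at day 14, and neither day passed (0.33 ± 0.18, adjusted p = 0.291, and -0.03 ± 0.18, adjusted p = 0.921). Its partner Rnf43 was not tested. It had 2 and 11 reads in the day 7 control libraries, 38 and 34 with LAMZ at day 7, 13 and 9 in the day 14 control libraries and 14 and 13 with LAMZ at day 14, or 0.0809 to 1.36 RPKM. Calls in this group were lost when 1 library was left out. Rspo2 at day 7 did not pass without any of the 4 day 7 libraries or either day 14 control library (adjusted p = 0.0745 to 0.181). Rspo3 at day 7 did not pass without day 7 LAMZ library 1 (adjusted p = 0.0627). Lgr5 at day 7 did not pass without any of the 4 day 7 libraries or either day 14 control library (adjusted p = 0.0631 to 0.235). With every library kept, calls were lost for Rspo2 at day 7 in 5 of 12 (adjusted p up to 0.14) and Lgr5 at day 7 in 8 of 12 (adjusted p up to 0.123), both scalings by median and by quantile among them.

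Of the 19 Wnt ligands, 7 were tested, and the other 12 comprised Wnt1, at 0 throughout, and 11 genes whose highest library ranged from 0.0824 to 1.58 RPKM. LAMZ raised Wnt10b on both days, and at day 14 it raised Wnt4 and Wnt5b and lowered Wnt16. The 1 call at day 7 is 14.3% of the 7, where 12.8% of all tested genes passed, 4.35% upwards. At day 14 42.9% rose and 14.3% fell, against 6.96% and 16.0% of all tested genes. With every library rescaled to the same sum none passed at day 7 and only 1 rose and 2 fell at day 14. This scaling called 28.7% and 46.3% of all genes. Wnt10b (ENSMUSG00000022996, chr15:98770712-98778150, minus strand), a ligand that favours osteoblast over adipocyte formation, had RPKM of 2.95 and 4.95 in the day 7 control libraries and 8.24 and 7.73 with LAMZ. Wnt10b at day 14 was at 4.47 and 4.26 in control and 12.6 and 14.7 with LAMZ. The LAMZ libraries were above the controls on both days, with the highest values at day 14. The mean RPKM was 2.02-fold higher at day 7 (0.89 ± 0.19, adjusted p = 0.0211) and 3.13-fold higher at day 14 (1.45 ± 0.19, adjusted p = 0.00156). It was the highest Wnt ligand in all LAMZ libraries. Wnt5b, a ligand mostly tied to β-catenin-independent signalling, had RPKM of 3.2 and 3.15 in the day 7 control libraries and 5.12 and 3.9 with LAMZ. Wnt5b at day 14 was at 4.91 and 4.67 in control and 6.98 and 8.18 with LAMZ. It rose at day 14 (0.56 ± 0.14, adjusted p = 0.0255), and at day 7 it was higher in both LAMZ libraries without passing (0.39 ± 0.14, adjusted p = 0.119). Wnt4 had RPKM of 0.253 and 0.0688 in the day 7 control libraries and 0.615 and 0.275 with LAMZ. Wnt4 at day 14 was at 0.40 and 0.791 in control and 1.59 and 2.15 with LAMZ. Reads numbered 4 and 1 in the day 7 control and 39 and 44 in the day 14 LAMZ libraries. The day 14 LAMZ libraries were the highest (0.85 ± 0.25, adjusted p = 0.0413), and the day 7 change was 0.31 ± 0.25 (adjusted p = 0.465).

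Wnt16, a ligand known for its effect on cortical bone, had RPKM of 2.49 and 2.98 in the day 7 control libraries and 2.21 and 2.25 with LAMZ. Wnt16 at day 14 was at 2.52 and 2.64 in control and 1.49 and 1.41 with LAMZ. The LAMZ libraries were lower on both days, and the fall passed at day 14 (-0.55 ± 0.13, adjusted p = 0.0222) but not at day 7 (-0.21 ± 0.13, adjusted p = 0.355). Wnt5a, the best known ligand of β-catenin-independent signalling, had RPKM of 4.31 and 2.92 in the day 7 control libraries and 3.06 and 3.39 with LAMZ. Wnt5a at day 14 was at 3.33 and 3.82 in control and 4.25 and 4.27 with LAMZ. Its level stayed within a narrow range, and neither day passed (-0.11 ± 0.16, adjusted p = 0.705, and 0.20 ± 0.16, adjusted p = 0.406). Wnt7b, a ligand that induces osteoblast formation, had RPKM of 1.5 and 1.44 in the day 7 control libraries and 2.71 and 3.09 with LAMZ. Wnt7b at day 14 was at 0.38 and 0.0501 in control and 0.35 and 0.836 with LAMZ. It was lower at day 14 than at day 7 in both arms and changed with LAMZ only when both days were averaged (0.52 ± 0.16, adjusted p = 0.0405; 0.66 ± 0.22, adjusted p = 0.0974 at day 7). Wnt9a had RPKM of 1.29 to 2.06 and passed nowhere. Summed over the 19 genes, Wnt ligand RPKM was 18.7 to 19.7 in the day 7 control libraries, 24.6 to 26.3 with LAMZ at day 7, 21.7 to 22.3 in the day 14 control libraries and 31 to 35.2 with LAMZ at day 14, and the ratio of Wnt10b to Wnt5a, a pair chosen after its values were seen, was 0.686 and 1.7 in the day 7 control libraries, 2.69 and 2.28 with LAMZ at day 7, 1.34 and 1.12 in the day 14 control libraries and 2.97 and 3.45 with LAMZ at day 14. Ligand calls were lost when 1 library was left out. Wnt7b averaged over both days did not pass without any of the 4 day 7 libraries, day 14 control library 2 or day 14 LAMZ library 2 (adjusted p = 0.0776 to 0.128). Wnt10b at day 7 did not pass without either day 7 LAMZ library or day 7 control library 1 (adjusted p = 0.0609 to 0.125). Wnt4 at day 14 did not pass without any of the 4 day 14 libraries or either day 7 LAMZ library (adjusted p = 0.0508 to 0.225). Wnt5b at day 14 did not pass without any of the 4 day 14 libraries (adjusted p = 0.0542 to 0.148). Wnt16 at day 14 did not pass without any of the 4 day 14 libraries (adjusted p = 0.071 to 0.107). Calls were also lost with every library kept for Wnt10b at day 7 in 3 of 12 (adjusted p up to 0.0995), Wnt4 at day 14 in 5 of 11 (adjusted p up to 0.116), Wnt5b at day 14 in 3 of 12 (adjusted p up to 0.184) and Wnt16 at day 14 in 4 of 12 (adjusted p up to 0.116).

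Among the Frizzled receptors, 8 of 10 were tested. At day 7, Fzd5, Fzd6, Fzd7 and Fzd9 rose and Fzd4 fell, or 50.0% and 12.5%, where 4.35% of all tested genes rose and 8.49% fell. At day 14 Fzd1, Fzd2 and Fzd4 fell and none passed upwards. That is 37.5% down, against 16.0% of all tested genes. With every library rescaled to the same sum, however, none rose and 3 fell at day 7, where 28.7% of all genes passed. With median centring 3 rose and 3 fell at day 14, where 22.8% of all genes passed. Fzd4 (ENSMUSG00000049791, chr7:89404355-89413134, plus strand), a receptor for Wnt ligands and for norrin, had RPKM of 5.21 and 5.07 in the day 7 control libraries and 0.907 and 0.885 with LAMZ. Fzd4 at day 14 was at 7.21 and 7.54 in control and 0.561 and 0.853 with LAMZ. The 4 LAMZ libraries were all under 1 RPKM and the 4 control libraries all above 5 RPKM. The mean was 5.73-fold lower at day 7 (-1.70 ± 0.13, adjusted p = 3.11e-04) and 10.4-fold lower at day 14 (-2.30 ± 0.13, adjusted p = 3.32e-05), from 22 and 28 reads in the day 14 LAMZ and 260 and 229 in the day 14 control libraries. Fzd4 is also known from endothelial cells, whose 12 listed markers summed to 23.3 to 23.6 in the day 7 control libraries and 16.2 to 18.7 with LAMZ. At day 14 the sums were 21.1 to 25.6 in control and 20.4 to 22.9 with LAMZ. Eng made most of them, with means of 19.2 and 14.9 at day 7 and 17.8 and 18.5 at day 14. Pecam1 was at 0.222 RPKM or less and Cldn5 at 0 in every library. Of 3 tested genes 1, Tek, was lower on each day, where 8.49% and 16.0% of all tested genes fell. Its means were 1.48 in control and 0.115 with LAMZ at day 7, and 1.42 and 0.283 at day 14. Whether endothelial cells were present was not tested.

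Fzd1 and Fzd2 were the highest Frizzled genes in control libraries. Fzd1 had RPKM of 26.1 and 22.1 in the day 7 control libraries and 15.9 and 20.1 with LAMZ. Fzd1 at day 14 was at 32.6 and 27.8 in control and 13.8 and 17.4 with LAMZ. Its LAMZ libraries were lower on both days, with changes of -0.41 ± 0.17 (adjusted p = 0.166) and -0.91 ± 0.17 (adjusted p = 0.00742). Fzd2 had RPKM of 31.4 and 25.5 in the day 7 control libraries and 20.4 and 23.8 with LAMZ. Fzd2 at day 14 was at 22.5 and 21.4 in control and 13 and 12.6 with LAMZ. It also lay lower on both days and passed at day 14 (-0.35 ± 0.14, adjusted p = 0.144, and -0.73 ± 0.14, adjusted p = 0.00737). Fzd5 (ENSMUSG00000045005, chr1:64730558-64737751, minus strand) took the opposite course, with RPKM of 11.9 and 11.2 in the day 7 control libraries and 21.4 and 17.4 with LAMZ. Fzd5 at day 14 was at 22.2 and 20.6 in control and 27.5 and 30.4 with LAMZ. It was higher with LAMZ on both days and passed at day 7 (0.70 ± 0.13, adjusted p = 0.0134), while day 14 missed the threshold (0.42 ± 0.13, adjusted p = 0.0563). In all 4 control libraries Fzd5 was below Fzd1, and it was above in both day 14 LAMZ libraries and in 1 of the 2 day 7 LAMZ libraries. The ratio of Fzd5 to Fzd1, chosen after its values were seen, was 0.457 and 0.503 in the day 7 control libraries, 1.35 and 0.866 with LAMZ at day 7, 0.682 and 0.743 in the day 14 control libraries and 1.99 and 1.75 with LAMZ at day 14.

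**Figure D5:**
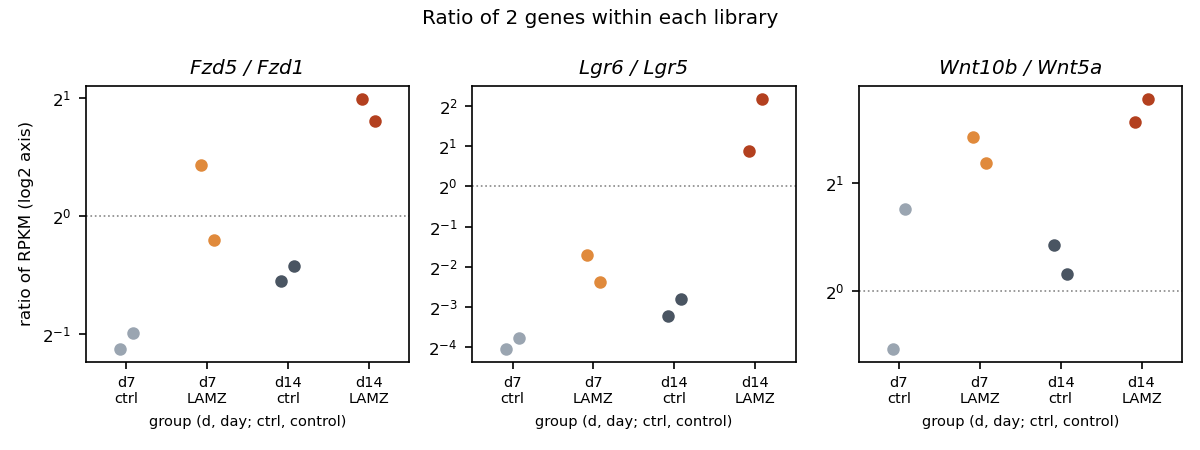
Ratio of RPKM of 2 genes within each library, on a log2 axis, for Fzd5 to Fzd1, Lgr6 to Lgr5 and Wnt10b to Wnt5a; each point is 1 library and the dotted line marks a ratio of 1. The Fzd5 to Fzd1 ratio is under 1 in the 4 control libraries and above 1 in both day 14 LAMZ libraries, as is the Lgr6 to Lgr5 ratio.

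Fzd6 had RPKM of 2.69 and 2.79 in the day 7 control libraries and 4.54 and 4.92 with LAMZ. Fzd6 at day 14 was at 1.62 and 2.09 in control and 2.9 and 2.43 with LAMZ. On both days both LAMZ libraries were above both controls. Fzd9, a receptor needed for normal bone formation in mice, had RPKM of 6.01 and 4.28 in the day 7 control libraries and 8.49 and 8.96 with LAMZ. Fzd9 at day 14 was at 2.6 and 3.18 in control and 4.04 and 4.56 with LAMZ. Fzd9 lay higher with LAMZ on both days in the same way, and the day 7 change of both genes passed (0.61 ± 0.14, adjusted p = 0.0273 for Fzd6 and 0.68 ± 0.16, adjusted p = 0.0327 for Fzd9). Fzd7 had RPKM of 9.3 and 11.5 in the day 7 control libraries and 15.2 and 15.9 with LAMZ. Fzd7 at day 14 was at 11.2 and 11.4 in control and 10.3 and 11.8 with LAMZ. It was higher with LAMZ at day 7 (0.55 ± 0.13, adjusted p = 0.0331), and at day 14 the libraries overlapped, with a change of -0.03 ± 0.13 (adjusted p = 0.883) whose sign depended on the scaling. Fzd8 stayed between 13.2 and 18.9 RPKM and passed in no comparison, and Fzd3 and Fzd10 were not tested, with at most 0.974 and 0.126 RPKM. Frizzled calls were lost when 1 library was left out. Fzd5 at day 7 did not pass without day 7 control library 2 or day 7 LAMZ library 1 (adjusted p = 0.0549 to 0.102). Fzd6 at day 7 did not pass without any of the 4 day 7 libraries (adjusted p = 0.075 to 0.14). Fzd7 at day 7 did not pass without either day 7 LAMZ library, either day 14 control library or day 7 control library 1 (adjusted p = 0.053 to 0.15). Fzd9 at day 7 did not pass without either day 7 LAMZ library, either day 14 LAMZ library or day 7 control library 2 (adjusted p = 0.0541 to 0.148). Fzd1 at day 14 did not pass without day 14 control library 1 or day 14 LAMZ library 1 (adjusted p = 0.0509 to 0.0532). With every library kept, calls were lost for Fzd5 at day 7 in 2 of 12 (adjusted p up to 0.0658), Fzd6 at day 7 in 4 of 12 (adjusted p up to 0.102), Fzd7 at day 7 in 4 of 12 (adjusted p up to 0.213) and Fzd9 at day 7 in 5 of 12 (adjusted p up to 0.102), and the same sum in every library was among the settings for each.

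The 3 co-receptors moved differently. Lrp4, which anchors the bone antagonist sclerostin, had RPKM of 5.71 and 6.98 in the day 7 control libraries and 11.6 and 10.1 with LAMZ. Lrp4 at day 14 was at 9.17 and 10.3 in control and 13.6 and 19.4 with LAMZ. It was higher with LAMZ on both days (0.70 ± 0.18, adjusted p = 0.0431, and 0.69 ± 0.18, adjusted p = 0.0294). Lrp6, which with a Frizzled receptor passes the Wnt signal on, had RPKM of 12.5 and 12.9 in the day 7 control libraries and 11.4 and 9.38 with LAMZ. Lrp6 at day 14 was at 13.9 and 13.9 in control and 8.96 and 8.07 with LAMZ. It was lower with LAMZ on both days and passed at day 14 (-0.27 ± 0.13, adjusted p = 0.204, and -0.65 ± 0.13, adjusted p = 0.00867). Lrp5 had RPKM of 6.62 and 9.81 in the day 7 control libraries and 12.5 and 11.9 with LAMZ. Lrp5 at day 14 was at 10.5 and 11.3 in control and 7.25 and 8.69 with LAMZ. Its LAMZ libraries were above the controls at day 7 and below them at day 14, and neither day (0.54 ± 0.18, adjusted p = 0.0877, and -0.41 ± 0.18, adjusted p = 0.133) nor the difference (-0.95 ± 0.25, adjusted p = 0.134) passed. Co-receptor calls were lost when 1 library was left out. Lrp4 at day 7 did not pass without any of the 4 day 7 libraries or either day 14 control library (adjusted p = 0.0652 to 0.219). Lrp4 at day 14 did not pass without either day 14 control library or day 14 LAMZ library 2 (adjusted p = 0.0818 to 0.16). Lrp6 at day 14 did not pass without day 14 LAMZ library 2 (adjusted p = 0.0634). Without day 14 LAMZ library 2 the day 14 change of Lrp4 was 0.44. The Lrp4 call was lost with every library kept in 6 of 12 settings at day 7 (adjusted p up to 0.14) and 3 of 12 at day 14 (up to 0.166).

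Inside the cell, Tcf7 rose, and Axin2 and Nkd2, negative feedback genes of the pathway, fell at day 14. Nkd1, a relative of Nkd2, rose at day 7. Tcf7 (ENSMUSG00000000782, chr11:52252371-52283014, minus strand), a β-catenin partner that is also a Wnt target in osteoblasts, had RPKM of 7.68 and 12 in the day 7 control libraries and 28.6 and 26.4 with LAMZ. Tcf7 at day 14 was at 8.02 and 9.69 in control and 15 and 16.2 with LAMZ. Its LAMZ libraries were above the controls on both days, 2.79-fold in mean RPKM at day 7 (1.42 ± 0.19, adjusted p = 0.00321) and 1.76-fold at day 14 (0.76 ± 0.19, adjusted p = 0.0256). Tcf7l1, which mostly represses targets, had RPKM of 5.41 and 4.93 in the day 7 control libraries and 4.0 and 4.84 with LAMZ. Tcf7l1 at day 14 was at 5.08 and 6.76 in control and 3.85 and 4.75 with LAMZ. Its LAMZ libraries were below the controls on both days. Tcf7l2 had RPKM of 3.19 and 4.03 in the day 7 control libraries and 2.17 and 2.33 with LAMZ. Tcf7l2 at day 14 was at 5.05 and 4.99 in control and 3.75 and 4.99 with LAMZ. Neither of the 2 passed on any day, with changes of -0.19 ± 0.16 (adjusted p = 0.504) and -0.38 ± 0.16 (adjusted p = 0.135) for Tcf7l1 and -0.50 ± 0.15 (adjusted p = 0.0744) and -0.17 ± 0.15 (adjusted p = 0.455) for Tcf7l2. Lef1 was not tested: it had 2 and 4 reads in the day 7 control libraries, 14 and 15 with LAMZ at day 7, 2 and 1 in the day 14 control libraries and 9 and 16 with LAMZ at day 14.

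Ctnnb1, the gene of β-catenin, had RPKM of 104 and 112 in the day 7 control libraries and 131 and 115 with LAMZ. Ctnnb1 at day 14 was at 88 and 97.1 in control and 119 and 124 with LAMZ. It was the highest intracellular member in every library. The LAMZ libraries were above the controls on both days without passing on either (0.18 ± 0.12, adjusted p = 0.371, and 0.39 ± 0.12, adjusted p = 0.0525), and the average over days passed (0.29 ± 0.086, adjusted p = 0.0386) but was negative with every library rescaled to the same sum. Ctnnb1 averaged over both days did not pass without any of the 4 day 14 libraries, either day 7 LAMZ library or day 7 control library 1 (adjusted p = 0.0524 to 0.136).

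Axin2, a scaffold of β-catenin destruction and a widely used readout of Wnt signalling, had RPKM of 1.4 and 1.26 in the day 7 control libraries and 1.36 and 1.53 with LAMZ. Axin2 at day 14 was at 1.12 and 1.17 in control and 0.498 and 0.372 with LAMZ. Reads per library ran from 10 to 44. At day 7 the groups overlapped (0.07 ± 0.17, adjusted p = 0.827), and at day 14 both LAMZ libraries were below both controls, 2.62-fold in mean RPKM (-0.58 ± 0.17, adjusted p = 0.0438). Axin1, the scaffold that is not induced by Wnt signals, had RPKM of 10.5 and 9.96 in the day 7 control libraries and 6.8 and 7.32 with LAMZ. Axin1 at day 14 was at 8.17 and 10.3 in control and 7.12 and 7.33 with LAMZ. It was lower in all LAMZ libraries and passed when averaged over days (-0.39 ± 0.092, adjusted p = 0.0153), not at day 7 or day 14 alone (adjusted p = 0.0511 and 0.131). Axin1 averaged over both days did not pass without day 7 LAMZ library 1 or day 14 LAMZ library 1 (adjusted p = 0.051 to 0.0595). Nkd2, an inhibitor of Dishevelled, had RPKM of 2.86 and 3.65 in the day 7 control libraries and 2.82 and 2.39 with LAMZ. Nkd2 at day 14 was at 3.2 and 3.9 in control and 1.28 and 1.66 with LAMZ. All LAMZ libraries were lower than the controls of their day, with changes of -0.24 ± 0.16 (adjusted p = 0.394) and -0.88 ± 0.16 (adjusted p = 0.00693). Its relative Nkd1 had RPKM of 2.5 and 2.22 in the day 7 control libraries and 3.96 and 3.92 with LAMZ. Nkd1 at day 14 was at 2.17 and 2.81 in control and 1.69 and 1.57 with LAMZ. Nkd1 was higher with LAMZ at day 7 (0.56 ± 0.14, adjusted p = 0.0399), and at day 14 its LAMZ libraries were below the controls without passing (-0.40 ± 0.14, adjusted p = 0.0773), with a difference between days of -0.96 ± 0.20 (adjusted p = 0.0843). Intracellular calls were lost when 1 library was left out. Axin2 at day 14 did not pass without any of the 4 day 14 libraries or either day 7 LAMZ library (adjusted p = 0.0688 to 0.178). Nkd1 at day 7 did not pass without any of the 4 day 7 libraries or either day 14 LAMZ library (adjusted p = 0.0656 to 0.174). Nkd2 at day 14 did not pass without day 14 control library 2 or day 14 LAMZ library 1 (adjusted p = 0.0501 to 0.0513). Tcf7 at day 14 did not pass without any of the 4 day 14 libraries (adjusted p = 0.0586 to 0.127). With every library kept, calls were also lost for Axin2 at day 14 in 7 of 12 (adjusted p up to 0.203), Nkd1 at day 7 in 6 of 12 (adjusted p up to 0.142) and Tcf7 at day 14 in 2 of 12 (adjusted p up to 0.135).

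Between day 7 and day 14 in control, 2 of 40 genes passed, Fzd5 up and Wnt7b down, against 4.86% of all tested genes, 2.46% up and 2.4% down. Fzd5 was 1.86-fold higher in mean RPKM in the day 14 controls (0.84 ± 0.13, adjusted p = 0.0158), the same direction as its change with LAMZ. Its LAMZ call at day 7 is set against the same day 7 control libraries, so this likeness is partly built in. Wnt7b was 6.84-fold lower (-1.04 ± 0.22, adjusted p = 0.0437), the opposite of its averaged change with LAMZ. Rspo2 (0.81 ± 0.29, adjusted p = 0.159), Lgr5 (0.51 ± 0.17, adjusted p = 0.134) and Dkk1 (0.84 ± 0.26, adjusted p = 0.116) were higher in both day 14 controls than in both day 7 controls without passing. So were others, among them Fzd4 (0.45 ± 0.13, adjusted p = 0.102) and Wnt5b (0.47 ± 0.14, adjusted p = 0.105). Fzd9, which came nearest without passing, was lower in both (-0.65 ± 0.16, adjusted p = 0.064). The change was above 0 in 30 of the 40 genes and below 0 in 10, with a median of 0.18. That of all tested genes was -0.05. How many of all tested genes were separated in this way was not counted. Both calls were lost in fits that left out 1 library. Without a LAMZ library the Wnt7b change stayed at -1.04, as those libraries enter only the estimate of the spread. Fzd5 over time in control did not pass without either day 7 control library or either day 14 control library (adjusted p = 0.0517 to 0.105). Wnt7b over time in control did not pass without any of the 8 libraries (adjusted p = 0.0541 to 0.143).

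Other genes of the pathway were taken from lists by name. Of 24 tested genes that act on Wnt signals outside the cell or at the membrane, 6 rose and 6 fell at day 7 and 4 rose and 8 fell at day 14, or 50.0% and 50.0% where 12.8% and 23.0% of all genes passed. With every library rescaled to the same sum 3 rose and 8 fell at day 7, and 2 rose and 13 fell at day 14. This scaling called 28.7% and 46.3% of all genes. Those that rose at day 7 by most were Bambi, a decoy receptor for TGF-β family ligands (1.71 ± 0.15, mean RPKM 3.48 in control and 13.6 with LAMZ), the imprinted gene Mest (1.55 ± 0.14), the receptor Tnfrsf19 (1.40 ± 0.17) and Kremen1, a partner of Dkk1 (0.63 ± 0.11). At day 14 Porcn, the enzyme that attaches the lipid to Wnt ligands, rose by 1.18 ± 0.16, from a mean of 4.9 to 12.4 RPKM, next to Mest (1.10 ± 0.14), Tnfrsf19 (0.66 ± 0.17) and Ptk7 (0.42 ± 0.11). The same 4 genes led the falls on both days: the Wnt5a receptor Ror1 (-0.81 ± 0.19 and -1.09 ± 0.19), the glypican Gpc3 (-0.70 ± 0.11 and -1.07 ± 0.11), the planar polarity gene Prickle2 (-0.67 ± 0.15 and -0.93 ± 0.15) and Tpbg (-0.81 ± 0.16 and -0.82 ± 0.16).

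Of 49 tested intracellular genes of the pathway that are not among the 61, none rose and 5 fell at day 7, and none rose and 14 fell at day 14. These are 10.2% and 28.6%, where 12.8% and 23.0% of all genes passed in either direction. All of these calls were falls, where 8.49% and 16.0% of all genes fell and 4.35% and 6.96% rose. The change was below 0 in 31 of the 49 at day 7 and 48 at day 14, and with median centring in 26 and 36. With every library rescaled to the same sum, which called 28.7% and 46.3% of all genes, 15 and 40 fell, with median centring 4 and 7, and none rose under any of these. The largest falls at day 7 were those of plakoglobin (Jup, -0.88 ± 0.15), the corepressor Tle2 (-0.84 ± 0.14), Tax1bp3 (-0.65 ± 0.13) and Aes (-0.56 ± 0.10). At day 14 they were those of Dact3 (-1.24 ± 0.22), Tle2 (-1.07 ± 0.14), the osteoblast cadherin Cdh11 (-0.99 ± 0.12) and Jup (-0.69 ± 0.15). Of 29 tested textbook target genes, 7 rose and 5 fell at day 7 and 7 rose and 11 fell at day 14. These are 41.4% and 62.1%, against the 12.8% and 23.0% of all genes that passed. Median centring turned the day 14 split to 9 up and 5 down, where 22.8% of all genes passed. With every library rescaled to the same sum 5 rose and 11 fell at day 7, and 2 rose and 15 fell at day 14. That scaling called 28.7% and 46.3% of all genes. Up at day 7 were Smpd3 (1.59 ± 0.25), Myc (1.41 ± 0.12), Dlx5 (1.28 ± 0.18) and the osteoprotegerin gene Tnfrsf11b (1.27 ± 0.17). At day 14 they were Ctgf (1.43 ± 0.16), Myc (1.14 ± 0.12), Vegfa (0.81 ± 0.21) and Plaur (0.70 ± 0.15). Down at day 7 were Wisp2 (-1.85 ± 0.17), Cldn1 (-1.47 ± 0.19), Jun (-1.09 ± 0.14) and Twist1 (-1.02 ± 0.16), and at day 14 Wisp2 (-2.11 ± 0.17), Fgf18 (-1.51 ± 0.18), Tiam1 (-1.10 ± 0.16) and Twist1 (-1.06 ± 0.16). Runx2, Dlx5 and Msx2 of this list are also osteoblast markers and Sox9 is a chondrocyte marker. The calls of Kremen1 at day 7 and of Tnfrsf19, Ptk7, Vegfa and Plaur at day 14 were lost with every library rescaled to the same sum, and that of Ror1 at day 7 with quantile normalization.

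Of the 61 genes, 12 share exon sequence with a gene on the other strand in GENCODE M21, and no source used here says whether reads were counted by strand, so their values are uncertain by the reads of that partner. They are Sfrp2 with Gm26771, Rspo3 with Gm48159, Axin2 with Gm11670, Fzd5 with Gm38058, Fzd6 with Gm26704, Wnt5a with Gm2670, Wnt7b with AU022754, Ctnnb1 with Ulk4 and Tcf7l1 with Gm15401, and, among those not tested, Lef1 with Gm43352, Notum with Myadml2os and Notumos and Wnt11 with Gm8398. Ctnnb1 also shares exon sequence with Mir7090.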

How the data were processed

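RNA of 8 libraries of osteoblast progenitors (day 7 and day 14, control and LAMZ, 2 each) was extracted with a Maxwell 16 LEV simplyRNA kit and sequenced on an Ion Proton. The RPKM values per gene symbol were deposited by the authors, who made them with CLC Genomics Workbench on build mm10 according to the methods and the submitters' notes. The CLC version, the annotation and the use of strand are not given in the sources used here. The 4 date-like symbols were dropped, which left 51822.

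Values were tested as log2(RPKM + 1) with limma 3.58.1 (lmFit, eBayes with a trend) in R 4.3.3, for 12514 genes with an RPKM of 1 or more in 2 or more libraries. A single fit held the 4 groups, with 4 residual degrees of freedom, and the Benjamini-Hochberg adjustment of p-values covered all tested genes, with calls at an adjusted p under 0.05. LAMZ was compared with control on each day, over both and for the difference between days, and control libraries of day 14 with those of day 7. An exact permutation test of 2 against 2 libraries cannot go below p = 0.333 and was not used. The script was tested on simulated data.

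Whole reads were recovered from the steps of the RPKM values: 94.2% to 96.6% of 791 to 1373 low values a library came out whole within 0.05. For the genes reported here 50 of 61 gave whole reads. The counts of limma-voom on the recovered reads are an alternative chosen after seeing the data, and it called 2300 genes at day 7 and 4340 at day 14. Depth limits genes near 1 RPKM, whose reads are given.

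Genes were matched to GENCODE M21 (GRCm38) and promoters to RefSeq by symbol. One day 7 LAMZ table names its library by another code in its header, and the sample record was followed. Members and lists were chosen with earlier results of these data known. Values are printed for members called in any comparison and for the 3 highest tested members of each role, and of each other pathway list for the 4 called genes with the largest change in each direction. Alternatives changed the pseudocount (0.1 or 5), the filter (4 libraries or none), the scaling, the replicate block, the trend, the libraries in the fit and each library in turn.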

Additional observations from a re-analysis of the deposited data

Results flagged for a closer look

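The change of Sfrp1 with LAMZ differed between the days by -2.23 ± 0.27 (adjusted p = 0.0268) on the log2 scale, the fall at day 14 (-5.22) being larger than at day 7 (-3.0). The change of Sfrp2 differed by -1.73 ± 0.24 (adjusted p = 0.0369), from -0.31 at day 7 to -2.04 at day 14. In both genes all LAMZ libraries were below the control libraries of their day. The difference of Sfrp1 missed the threshold in 7 of 8 fits that left out 1 library (adjusted p = 0.0522 to 0.127), all but the fit without day 7 control library 1, and that of Sfrp2 in all 8 (adjusted p = 0.0522 to 0.151). With 2 libraries a group, no single library could be tested for standing apart from its group.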

How the results depend on the processing

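The 20 alternatives were a pseudocount of 0.1 or 5, a filter over 4 libraries or none, 3 other scalings, 2 replicate blocks, the 4 libraries of a comparison alone, no trend, limma-voom on recovered reads and each of the 8 libraries left out. By limma-voom 18 of the 40 genes passed at day 7 (9 up, 9 down) and 30 at day 14 (11 up, 19 down). It called 2300 and 4340 of all genes. At day 7, 14 genes passed, and 6 without the filter, 6 with the 4 libraries alone and 4 to 12 when 1 library was left out. At day 14, 21 passed, and 13 without the filter and 12 to 24 when 1 library was left out. The averaged count of 25 stayed between 19 and 26 when 1 library was left out. The 2 genes whose change differed between days became 4 at a pseudocount of 5, 1 without the trend, 0 without the filter by limma (17 at an unadjusted p under 0.05), 7 by limma-voom, and 0 to 1 when 1 library was left out. The 2 genes that changed over time in control became 1 at a pseudocount of 0.1, 1 without the filter, 6 at the same sum, 0 with the 4 libraries alone by limma (11 at an unadjusted p under 0.05), 6 by limma-voom, and 0 to 2 when 1 library was left out. Among genes called in any comparison, calls were gained at day 14 for Dkk1 in 10 of 20 alternatives, Ctnnb1 in 4, Fzd9 in 4, Fzd5 in 3 and Axin1, Fzd6 and Nkd1 in 2 each, and at day 7 for Axin1 in 6, Fzd1 and Fzd2 in 2 each and Lrp6, Sfrp2 and Wnt7b in 1 each. Where no setting's construction shows it, the cause was not tested.

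Same-numbered libraries did not deviate together (correlations of -0.0166 at day 7 and 0.0158 at day 14, 2 pairs each), so the replicate number was not taken as a pairing. Under a replicate block over all 4 groups, the counts came to 11 at day 7, 18 at day 14, 23 averaged, 1 for the difference and 1 over time in control. With the replicate block within each day they were 8, 16, 22 and, for the difference, 0 by limma (13 at an unadjusted p under 0.05).

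These signs turned, in each case for a change that was not called or, for the average of Ctnnb1, called at an adjusted p = 0.0386 by limma. The log2 fold change of Fzd7 at day 14 was 0.16 with median centring, 0.0831 with quantile normalization and -0.12 to 0.055 when 1 library was left out. That of Dkk2 at day 7 was 0.00909 with quantile normalization and -0.44 to 0.10 when 1 library was left out. At the same sum the values were -0.10 for Axin2 and -0.12 for Ctnnb1 at day 7, and -0.0548 for Fzd7, -0.17 for Nkd1 and -0.0446 for Ctnnb1 averaged, and quantile normalization gave -0.016 for Ctnnb1 at day 7. With 2 libraries a group and 3463503 to 5832092 mapped reads, small changes of genes near 1 RPKM could not be resolved.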
